A study of Caenorhabditis elegans with 2 samples.

Results

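Peaks with summits inside exons of protein-coding genes made up 227 of the 2540 nuclear peaks that passed the authors' irreproducible discovery rate (IDR) cut. IDR measures how alike peaks rank in replicates, but a listed peak need not match in both. The 227 were chosen by position alone, as nuclear IDR peaks with a summit in a coding, 5' UTR or 3' UTR exon of an annotated protein-coding transcript, out of 2563 IDR peaks in all. The IDR peaks were 8.47% of the 29977 nuclear candidates that the authors called on both replicates together, and 2.32% of the 9798 candidates in exons. They are compared below with the 2313 other nuclear IDR peaks, of which 689 were intronic and 1624 intergenic, and the 9571 exonic candidates that did not pass IDR.

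The peaks come from chromatin immunoprecipitation with an anti-GFP antibody followed by sequencing, in whole hermaphrodite L4 larvae of Caenorhabditis elegans strain ZM7247. All animals carried the alleles daf-16(mu86), a deletion that removes the worm's own factor, and daf-2(e1370), which reduces function of the insulin/IGF receptor, together with the transgene hpSi4 (Pmyo-3 GFP::daf-16a) on chromosome II. The myo-3 promoter drives the tagged DAF-16a in body wall muscle, so the bound protein is made mainly there while the DNA comes from whole animals. Larvae were collected 54 h after release from an arrest of starved L1 larvae obtained by bleaching, and chromatin was sheared by sonication. The genotype puts GFP before daf-16a, whereas a separate note describes a GFP-FLAG tag fused behind DAF-16. Biological replicates 1 and 2 form 1 group, and no other genotype or control was analysed here.

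DAF-16 is the worm FOXO transcription factor. Insulin signalling through DAF-2 keeps it in the cytoplasm, and reduced DAF-2 function lets it enter the nucleus, where it is known for activating stress resistance, metabolic and longevity genes. FOXO factors bind the DAF-16 binding element (DBE), and sites are usually looked for in promoters, introns and intergenic DNA. In the compact worm genome an exon can also lie at its own gene's start, at an internal start or just upstream of a neighbour, so the exon classes are set beside annotated starts below.

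Sequences with the DBE near exonic summits are shown first, because the DBE was the motif with the largest odds ratio over the other exonic candidates. Each is 30 bases of reference sequence of the C. elegans assembly WBcel235 (ce11), 5' to 3' on the strand of the host gene, with the element (GTAAACA, or TGTTTAC on the other strand) in capitals. They are the 8 exonic IDR peaks of highest signal with a DBE within 100 bp of the summit.
gpcp-1, summit in a coding exon, chrX:3108782-3108811, minus strand: tttgaaaacagtTGTTTACcacgacttcca
sqrd-1, summit in a 5' UTR, chrIV:14219921-14219950, plus strand: cctctgcgtctTGTTTACccggtgaaacga
cux-7, summit in a 5' UTR, chrIII:7520906-7520935, minus strand: tcgtgaaatcaaGTAAACAgcaacaaaaat
fkh-9, summit in a 5' UTR, chrX:3818821-3818850, minus strand: ggtggttgtgttTGTTTACcagtttcgagt
lys-1, summit in a coding exon, chrV:10278870-10278899, plus strand: gtcaatcgtgaTGTTTACgttgttggaatc
unc-22, summit in a 5' UTR, chrIV:11999567-11999596, minus strand: gtttgtttttatTGTTTACtataaacaatt
ZC477.3, summit in a 5' UTR, chrIV:7103545-7103574, plus strand: taaaccgagctGTAAACAtgctcacacgtc
tpp-2, summit in a 5' UTR, chrII:6097546-6097575, minus strand: ttgtgttcgttcTGTTTACcagcaactgtc
The element lay between 15 bp (tpp-2) and 90 bp (gpcp-1 and lys-1) from the summit in these 8 peaks. The exon class is that of the summit, and the element itself lay 72 bp upstream of the gene in cux-7, across the 5' UTR and coding sequence of 1 exon in ZC477.3, and in the class of the summit in the other 6. Over all 21 exonic IDR peaks with a DBE, the nearest element lay in an exon of the host in 15, in an intron in 4 and upstream of the host in 2. Of the 8 hosts, sqrd-1 encodes a mitochondrial sulfide:quinone oxidoreductase, fkh-9 another forkhead factor, lys-1 a lysozyme, unc-22 the giant muscle protein twitchin and tpp-2 a tripeptidyl peptidase.

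Of the 227 peaks, 76 lay in 5' UTRs (33.5%, Wilson 95% interval 27.7–39.8), 39 in 3' UTRs (17.2%, 12.8–22.6) and all the others, 49.3% (42.9–55.8), in coding exons. A summit in several classes was counted first as coding, then as 5' UTR, and 4 peaks were of that kind. The peaks had 221 host genes. Of these, 5 hosts held more than one peak: icl-1 with 3 coding peaks, and C49C3.4, pqn-18, F25H9.7 and T28F4.5, which were named after their values were seen. No summit lay in exons of more than one protein-coding gene.

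Candidates in 5' UTRs passed IDR most often. The share was 76 of 626 candidates in 5' UTRs (12.1%, interval 9.81–14.9), 39 of 1476 in 3' UTRs (2.64%, 1.94–3.59) and 1.46% (1.21–1.75) of the 7696 candidates in coding exons. The 5' UTR share lay above the 8.47% of all nuclear candidates, and the 3' UTR and coding shares lay below it. The log2 odds ratio was 3.23 ± 0.22 (SE) for 5' UTR over coding candidates, with an adjusted p of 4.94e-37 (Fisher's exact test, two-sided, adjusted by Benjamini and Hochberg's method for the 3 pairs of classes). It was 2.35 ± 0.29 for 5' UTR over 3' UTR (adjusted p = 2.35e-16) and 0.88 ± 0.27 for 3' UTR over coding (adjusted p = 0.00234, Fisher's exact test for both). These and all p-values below treat peaks as the units, not animals or replicates, and the intervals cover the counting of peaks only, since the files hold no read counts and depth is unknown.

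Peak strength is the signal of the authors' caller, a number on a scale that the sources used here do not give, used only to rank peaks. Exonic IDR peaks had a median signal of 86.5 (lowest 60.5, quartiles 70.4 and 126, highest 694), against a median of 94.6 (60.5, 74.2 and 132, 865) in the other nuclear IDR peaks. They reached the median of all nuclear IDR peaks in 95 of 227 cases (41.9%, interval 35.6–48.4), against 1175 of 2313 other IDR peaks (50.8%, 48.8–52.8). On the log2 scale the odds ratio was -0.52 ± 0.20, with an adjusted p of 0.0304 (Fisher's exact test, 10 tests against other IDR peaks). When the signal of a single replicate took the place of the pooled one, the log2 odds ratio was -0.07 with replicate 1 and -0.42 with replicate 2, neither past the threshold of 0.05; nor was it with peaks matched in both replicates (-0.39), 1 peak per host gene (-0.48) or intronic peaks alone as the other IDR peaks (-0.50).

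The lower signal was found in coding exons. Of the coding peaks, 38 (33.9%, interval 25.8–43.1) reached that median, with a log2 odds ratio of -1.01 ± 0.29 against the other IDR peaks (adjusted p = 0.00237, Fisher's exact test); with the signal of a single replicate it was -0.31 (replicate 1) and -0.63 (replicate 2), neither past the threshold. In 5' UTRs 40 of 76 peaks did so (52.6%, 0.11 ± 0.34, adjusted p = 0.816), and in 3' UTRs 17 of 39 (43.6%, -0.42 ± 0.47, adjusted p = 0.480, Fisher's exact test for both). The difference between the classes was not itself tested. Median signals were 82.7 in coding exons, 97.6 in 5' UTRs and 88.8 in 3' UTRs, against 94.1 in introns and 94.9 in intergenic DNA.

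**Figure D1:**
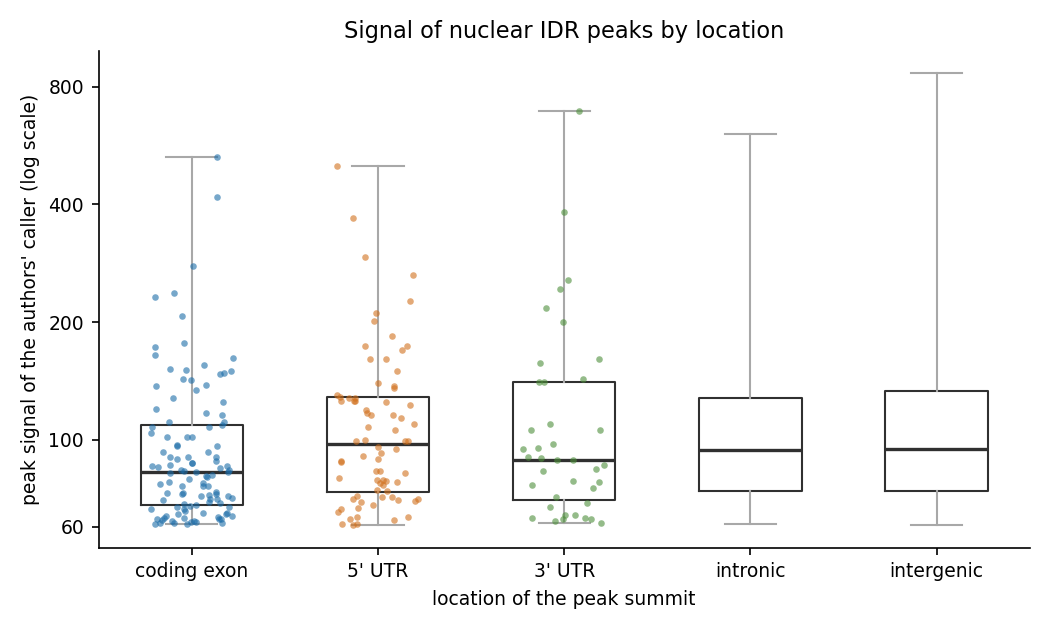
Signal of the authors' peak caller (log scale) for nuclear IDR peaks by the location of the summit; points are the exonic IDR peaks, boxes span the quartiles with the median as a thick line, and whiskers reach the lowest and highest peak. Coding peaks have the lowest median, 82.7, and the single strongest exonic peak, at 694, lies in a 3' UTR.

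The IDR list consisted of the 2540 nuclear candidates of highest signal, so the boundary is a signal value. Just inside it lay peaks in the 5' UTR of C17C3.1 (60.5) and a coding exon of ztf-14 (60.8). Just outside it lay candidates in coding exons of H14N18.4 (60.4) and the astacin protease gene nas-7 (60.1). The 9571 exonic candidates that did not pass had a median signal of 15.6 (quartiles 12 and 21.5), so every comparison with them is also one between strong and weak peaks.

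Most of the exonic IDR peaks were found in each replicate. A summit within 100 bp was present in both replicate lists for 210 of 227 peaks (92.5%, interval 88.3–95.3), against 2203 of 2313 other IDR peaks (95.2%, 94.3–96.0). This difference did not pass the test, with a log2 odds ratio of -0.70 ± 0.39 and an adjusted p of 0.157 (Fisher's exact test). Of the rest, 7 were matched in replicate 1 only, 9 in replicate 2 only and 1, in the 5' UTR of R04E5.9 (named after its values were seen), in neither. Among the 210, the median signal was 46.0 in replicate 1 (lowest 14.4, highest 302) and 48.0 in replicate 2 (10.6 and 392). Replicate 2 gave the higher value in 129 and replicate 1 in 81 of them, and in 19 the values were more than 2 times apart.

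**Figure D2:**
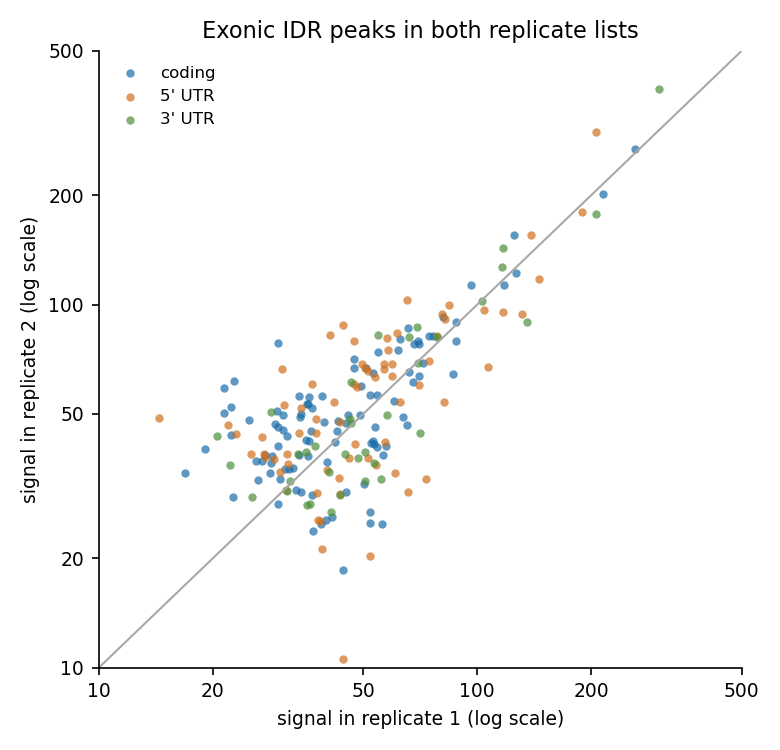
Signal of the 210 exonic IDR peaks matched in both replicate lists, replicate 1 on the horizontal and replicate 2 on the vertical axis (log scales), coloured by exon class, with the line of equal signal. The strongest peaks of all 3 classes lie near the line, and the scatter is wider among weak peaks.

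Exonic IDR peaks in 5' UTRs were mostly peaks at gene starts. A start window was taken as 1000 bp upstream to 200 bp downstream of any annotated transcript start. Of the 76 peaks in 5' UTRs, 69 lay in such a window (90.8%, interval 82.2–95.5), against 492 of 550 other 5' UTR candidates (89.5%, 86.6–91.8), and the log2 odds ratio was 0.22 ± 0.61 (adjusted p = 1.00, Fisher's exact test, 16 tests on location). The window belonged to a start of the host itself in 67 peaks. In 17 of these the summit was more than 500 bp from the host's most upstream start, so that the window was that of an internal or alternative start.

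The strongest 5' UTR peak was one of those. It lay in tent-5, which encodes a cytoplasmic poly(A) polymerase, with a signal of 502 in the pooled list, 206 in replicate 1 and 299 in replicate 2. Its summit at chrI:5379936 was 4572 bp from the most upstream start of tent-5 but 96 bp downstream of an annotated start. T22B7.7 followed with a signal of 369 (189 and 180 in replicates 1 and 2), its summit 30 bp after its start. The peak in srh-2, a gene of the serpentine chemoreceptor family, had 293 (139 and 155), 114 bp after an annotated start and 3222 bp from the most upstream one. In these 3 peaks and the next 5 the replicates were within a factor of 2 of each other.

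The peak in ints-4, an Integrator subunit gene, had a signal of 264 (146 and 118 in replicates 1 and 2), 31 bp after the start. The peak in sqrd-1 had 227 (131 and 94.2), 29 bp after the start, with the DBE shown above 35 bp from the summit. The peak in ncs-3, of the neuronal calcium sensor family, had 211 (117 and 95.6), 46 bp after the start. All 3 summits thus lay close to an annotated transcript start. C34C12.2 had 201 (104 and 96.7) but its summit was 2629 bp into a single long 5' UTR exon of 2829 bp, outside any start window. The peak in cux-7 had 184 (84.2 and 100), 5 bp after its start, and it also lay in the windows of the neighbours lig-4 and C07H6.2.

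Coding peaks divided between gene starts and gene bodies. A start window held 48 of them (42.9%, interval 34.1–52.1), against 2252 of 7584 other coding candidates (29.7%, 28.7–30.7). This gave a log2 odds ratio of 0.83 ± 0.28 with an adjusted p of 0.00691 (Fisher's exact test). With 1 peak per host gene it was 0.51 and with starts of protein-coding genes only 0.65, neither past the threshold. The window was the host's own in 30 peaks, only another protein-coding gene's in 6, only a noncoding gene's in 11 and only a pseudogene's in 1, while 64 (57.1%) lay in none.

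Coding IDR peaks lay near the host's start, in its first exon and in its last exon more often than the other coding candidates. Within 500 bp after the host's most upstream start lay 36 of them (32.1%, interval 24.2–41.3), against 1374 of 7584 (18.1%, 17.3–19), with a log2 odds ratio of 1.10 ± 0.30 (adjusted p = 0.00125, Fisher's exact test); it was not past the threshold with 1 peak per host gene (0.67), within 1000 bp (0.58) or with the stronger IDR peaks only, those at or above the median signal (1.06). The first exon held 35 coding peaks (31.2%) against 1221 of 7584 candidates (16.1%), a log2 odds ratio of 1.24 ± 0.30 (adjusted p = 2.87e-04, Fisher's exact test), and 0.69 to 0.81 when either replicate was left out. The last exon held 39 (34.8%) against 1444 of 7584 (19%), a log2 odds ratio of 1.18 ± 0.29 (adjusted p = 2.87e-04, Fisher's exact test), 0.79 to 0.81 without either replicate, and 1.14, not past the threshold, with the stronger IDR peaks only. The 8 coding peaks in single-exon transcripts count in both the first and the last exon. The median coding summit lay 1378 bp from the host's start and 1180 bp from its end, in hosts of median length 3156 bp. For the other coding candidates these medians were 1874, 1582 and 4028 bp.

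The 3 strongest coding peaks lay deep in the gene body. The strongest was in pks-1, which encodes a very large polyketide synthase, with a signal of 529 in the pooled list, 261 in replicate 1 and 268 in replicate 2. Its summit at chrX:5429539 was in exon 22 of 30, 15729 bp from the start and 12422 bp from the end. The second, in gpcp-1, had 417 (215 and 202) in exon 10 of 16, 1922 bp from the start, with a DBE and an E-box within 100 bp. The third, in pqn-62, a gene for a protein with a prion-like glutamine- and asparagine-rich domain, had 279 (125 and 155) in exon 11 of 16. None of these 3 lay in a start window, as was the case for 57.1% of all coding IDR peaks. All 3 were on X with replicates close to each other.

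The next coding peaks were of several kinds. M03F4.4 had 238 (127 and 122 in replicates 1 and 2) in a single exon of 90 bp, 1 bp from its start. T05G5.1 had 232 (118 and 113) in exon 4 of 8, 1086 bp from the start and outside any window. F58G1.7 had 207 (96.2 and 113) in exon 6 of 7, in the window of the noncoding RNA gene F58G1.11. So of these 3 only T05G5.1 lay away from every annotated start. C49C3.4 had 177 (88.1 and 89.6) in exon 7 of 22, 226 bp upstream of an annotated start of its own, and it was one of the few peaks over repeated sequence. T07F12.1 had 173 (81.0 and 92.5) in exon 3 of 6, outside any window.

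In 3' UTRs, exonic IDR peaks lay in start windows about as often as the other candidates of the class. The median summit was 148 bp from the host's end (lowest 3, highest 1964) and 4155 bp from its start. A start window held 14 of 39 (35.9%, interval 22.7–51.6), against 505 of 1437 other 3' UTR candidates (35.1%, 32.7–37.6). No difference passed the test, with a log2 odds ratio of 0.05 ± 0.49 (adjusted p = 1.00, Fisher's exact test). In 13 of the 14 the window belonged to another protein-coding gene and in the other to a noncoding gene. No 3' UTR peak lay within 500 bp of its own host's start (0 of 39, interval 0–8.97%), against 21 of 1437 other 3' UTR candidates (1.46%), and no difference passed the test.

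The strongest exonic peak of all was the one in the 3' UTR of F19H6.6, ranked 4 among the nuclear IDR peaks. Its signal was 694, with 302 in replicate 1 and 392 in replicate 2. Its summit at chrX:12363124 lay 3 bp before the annotated end of the gene and outside every start window. ZK673.1 followed with 383 (206 and 178), 245 bp before its end and also outside every window. These are the only 3' UTR peaks above 300, and both lay away from annotated starts.

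The next 4 of the class each lay upstream of a neighbouring protein-coding gene. The summit in srz-97, of the serpentine receptor family, with 257 (117 and 143 in replicates 1 and 2), was 140 bp upstream of F08H9.4. The summit in T10G3.8, with 243 (116 and 127), was 11 bp upstream of T10G3.1. The summit in unc-54, the main myosin heavy chain of body wall muscle, with 217 (135 and 89.4), was 136 bp upstream of aex-5, a proprotein convertase gene. F41C3.7, with 200 (103 and 102), was 859 bp upstream of ctsa-1.1, a cathepsin A gene. The remaining peaks among the strongest 8, in C05D11.8 with 161 (78.4 and 81.4) and in B0238.9 with 157 (69.3 and 87), lay in no window.

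Transgenes in worms often carry the unc-54 3' UTR, and the labels do not say whether hpSi4 does. Besides the peak of 217, a candidate of 53.2 that did not pass IDR lay in the same 3' UTR, and 12 candidates of 10.5 to 58.1 that did not pass lay in coding exons of unc-54. In daf-16, which the transgene's name holds as daf-16a, the exonic candidates had signals of 11.1 and 14.2. In myo-3, of which the name holds only the promoter and no exon, they had at most 12.2. None of these passed IDR. Whether the unc-54 peak involves transgene DNA was not tested.

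**Figure D3:**
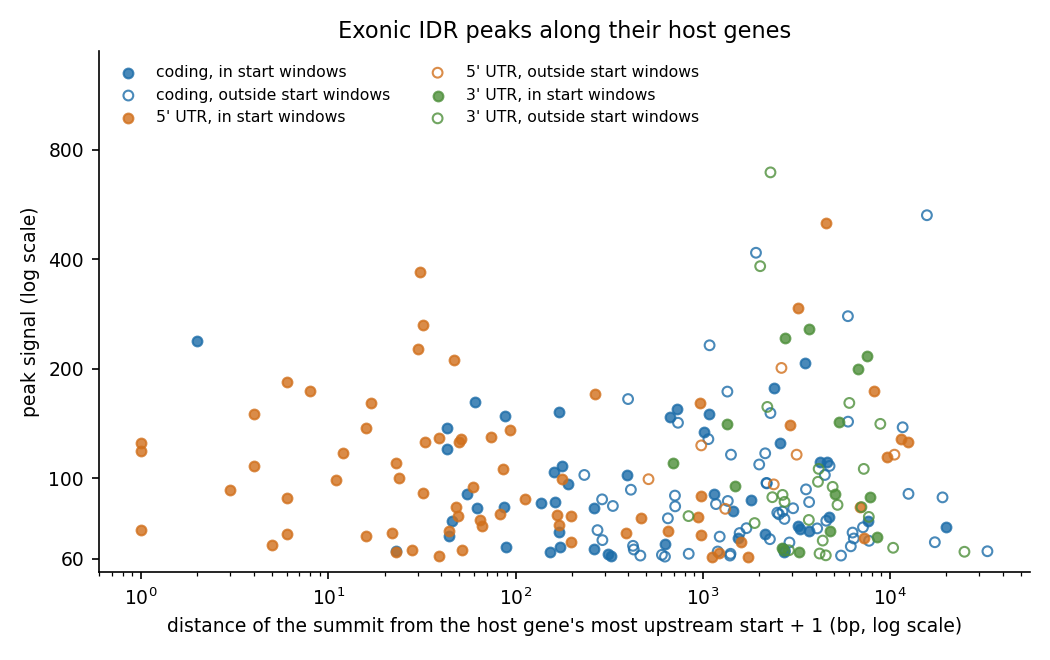
Distance of the summit from the most upstream start of the host gene plus 1 bp (horizontal, log scale) against peak signal (vertical, log scale) for the 227 exonic IDR peaks; filled points lie in a start window of any gene, open points in none. Peaks in 5' UTRs (orange) gather at the left with a median distance of 69.0 bp, and the strongest coding (blue) and 3' UTR (green) peaks are open points.

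Over all 3 classes, 131 of 227 exonic IDR peaks lay in a start window (57.7%, interval 51.2–64), against 3249 of 9571 other exonic candidates (33.9%, 33.0–34.9). This gave a log2 odds ratio of 1.41 ± 0.20 with an adjusted p of 4.74e-12 (Fisher's exact test), but the class makeup of the groups differs and the share by class is the closer comparison. The host's own start was near in 97 of 227 (42.7%) against 1656 of 9571 (17.3%), a log2 odds ratio of 1.83 ± 0.20 (adjusted p = 1.82e-17, Fisher's exact test). Another protein-coding gene's start was near in 46 (20.3%) against 1217 (12.7%), 0.80 ± 0.24 (adjusted p = 0.00398, Fisher's exact test). This last call was lost without replicate 1, where the log2 odds ratio was 0.27, and also with 1 peak per host gene (0.44) or with the stronger IDR peaks only (0.87). A noncoding gene's start was near in 31 (13.7%) against 890 (9.30%), 0.63 ± 0.28, which was not past the threshold (adjusted p = 0.0661, Fisher's exact test), whereas it was past it when either replicate list was used alone, with 0.99 without replicate 1 and 0.69 without replicate 2.

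**Figure D4:**
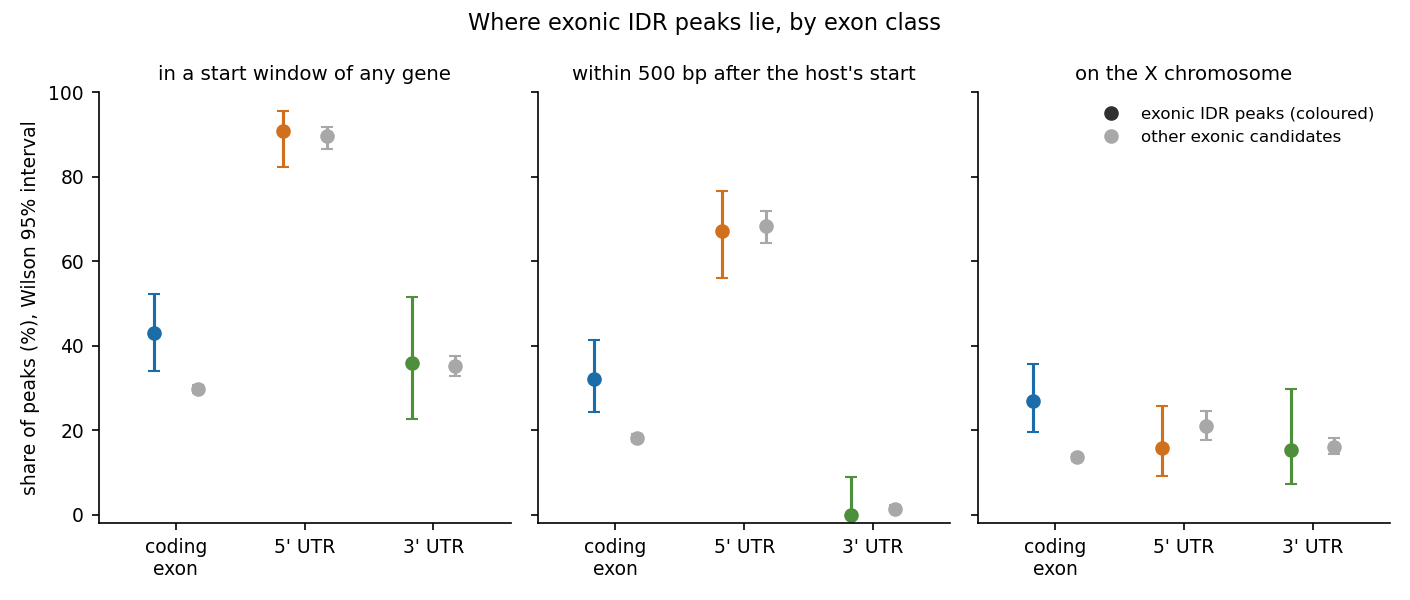
Share of peaks (%) with Wilson 95% intervals for exonic IDR peaks (coloured, left of each pair) and the other exonic candidates of the same class (grey): summits in a start window of any gene, summits within 500 bp after the host's most upstream start, and summits on X. The pairs for coding exons are apart in all 3 panels, 42.9% against 29.7%, 32.1% against 18.1% and 26.8% against 13.6%, and the intervals of the UTR pairs overlap.

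Exonic IDR peaks rarely lay inside noncoding genes. The summit was inside an annotated noncoding gene in 4 of 227 (1.76%, interval 0.687–4.44), against 69 of 9571 other exonic candidates (0.721%, 0.570–0.911), with a log2 odds ratio of 1.30 ± 0.75 (adjusted p = 0.142, Fisher's exact test). It was 312 of 2313 (13.5%, 12.2–14.9) in the other IDR peaks, a log2 odds ratio of -3.12 ± 0.73 (adjusted p = 1.34e-08, Fisher's exact test), a contrast that the choice of exonic summits itself can set, since many noncoding genes lie outside protein-coding exons. The unc-22 peak was among these 4 and lay in the noncoding RNA gene ZK617.7.

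Repeated sequence was also rarer than at the other IDR peaks. A sequence of 31 bases within 50 bp of the summit occurred again in the genome for 2 of 227 exonic IDR peaks (0.881%, interval 0.242–3.15), against 184 of 2313 other IDR peaks (7.96%, 6.92–9.13) and 309 of 9571 other exonic candidates (3.23%, 2.89–3.60). The log2 odds ratio was -3.28 ± 1.03 against other IDR peaks (adjusted p = 6.00e-05, Fisher's exact test), and -1.41 without replicate 2, where 7 of 265 exonic peaks held a repeat; with the stronger IDR peaks only it was -2.64, not past the threshold. Against other exonic candidates the log2 odds ratio was -1.91 ± 1.03, not past the threshold (adjusted p = 0.116, Fisher's exact test). How far the choice of exonic summits itself sets the contrast with other IDR peaks was not tested. The 2 peaks were those in C49C3.4 and C28G1.2, the second of which was named after its values were seen.

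The X chromosome held 48 of the 227 peaks (21.1%, interval 16.3–26.9), between the other IDR peaks and the other exonic candidates. Against 684 of 2313 other IDR peaks (29.6%, 27.7–31.5) the log2 odds ratio was -0.65 ± 0.24 (adjusted p = 0.0238, Fisher's exact test), and this call was lost without repeated sequence (-0.57) and with the stronger IDR peaks only (-0.40). Against 1376 of 9571 other exonic candidates (14.4%, 13.7–15.1) it was 0.68 ± 0.24 (adjusted p = 0.0219, Fisher's exact test, 9 tests), and this call was lost without replicate 1 (0.53), without replicate 2 (0.50) and with the stronger IDR peaks only (0.93). The coding peaks had 30 on X (26.8%) against 1030 of 7584 (13.6%), 1.22 ± 0.31 (adjusted p = 0.00112, Fisher's exact test), which without replicate 1 was 0.66 and not past the threshold. In 5' UTRs the share was 15.8% against 20.9% and in 3' UTRs 15.4% against 16.1% (adjusted p = 0.543 and 1.00, Fisher's exact test). The other chromosomes held 32 (I), 34 (II), 42 (III), 29 (IV) and 42 (V) of the peaks. The strongest peak on each was in tent-5 (I), ZK673.1 (II), T05G5.1 (III), sqrd-1 (IV), srh-2 (V) and F19H6.6 (X).

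Base composition differed in 3' UTRs. GC content within 100 bp of the summit reached the median of all exonic candidates in 14 of 39 peaks in 3' UTRs (35.9%, interval 22.7–51.6), against 139 of 1437 other candidates there (9.67%, 8.25–11.3). The difference was 2.39 ± 0.50 as a log2 odds ratio (adjusted p = 1.26e-04, Fisher's exact test), and 1.96, not past the threshold, with the stronger IDR peaks only. In coding exons 63 peaks (56.2%, 47–65.1) against 4551 of 7584 candidates did so, in 5' UTRs 39 of 76 peaks (51.3%) against 40.2%, and over all classes 51.1% against 51.3% (adjusted p = 0.563, 0.147 and 1.00, Fisher's exact test). The 5' UTR log2 odds ratio of 0.65 depended on the window, with 1.78 and past the threshold within 50 bp of the summit and 0.14, not past it, within 200 bp; it was also past it without replicate 2 (1.24).

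The DBE was more frequent at exonic IDR peaks than at other exonic candidates, and no difference from the other IDR peaks passed the test. It lay within 100 bp of the summit in 21 of 227 (9.25%, interval 6.13–13.7), against 207 of 2313 other IDR peaks (8.95%, 7.85–10.2) and 132 of 9571 other exonic candidates (1.38%, 1.16–1.63). The log2 odds ratio was 0.05 ± 0.35 against the other IDR peaks (adjusted p = 1.00, Fisher's exact test, 12 motif tests). Against the other exonic candidates it was 2.87 ± 0.35 (adjusted p = 5.17e-10, Fisher's exact test), and 2.23 without replicate 1 and 1.94 without replicate 2. The letters of the DBE read backwards without complementing them (ACAAATG), a control sequence, were found in 5.29% against 5.45% and 5.17% (adjusted p = 1.00 for both, Fisher's exact test).

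The DBE share was higher than among the other candidates in coding exons and in 5' UTRs. It was 8 of the coding peaks (7.14%, interval 3.66–13.5) against 83 of 7584 (1.09%, 0.884–1.35), with a log2 odds ratio of 2.80 ± 0.55 (adjusted p = 4.39e-04, Fisher's exact test, 9 tests by class that were added after the data were seen). The 5' UTR share was 10 of 76 (13.2%, 7.31–22.6) against 19 of 550 (3.45%, 2.22–5.33), 2.08 ± 0.59 (adjusted p = 0.00514, Fisher's exact test). The 3' UTR share was 3 of 39 (7.69%, 2.65–20.3) against 30 of 1437 (2.09%, 1.47–2.96), 1.97 ± 0.91, not past the threshold (adjusted p = 0.0808, Fisher's exact test). Without replicate 2 neither of the first 2 was past the threshold, with 1.59 in coding exons and 1.66 in 5' UTRs; without the X chromosome the coding value was 2.06, also not past it, and with a window of 50 bp it was 2.01 in coding exons and 1.91 in 5' UTRs, again not past it. With the stronger IDR peaks only, the coding value was 2.33, not past it either. The control sequence, which was not tested by class, also lay in 8 of the coding peaks (7.14%). It lay in 2 of 76 peaks in 5' UTRs (2.63%) and 2 of 39 in 3' UTRs (5.13%).

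Coding peaks with a DBE lay both inside and outside start windows. Of the 8, 5 lay in no start window (62.5%), against 57.1% of all coding IDR peaks and 57 of the 83 other coding candidates with a DBE (68.7%), given as shares with no test. Thus 5 of the 64 coding peaks outside windows held a DBE (7.81%), against 57 of 5332 other coding candidates outside windows (1.07%). The control sequence lay in 6 of the same 64 peaks (9.38%), against 275 of the 5332 candidates (5.16%), also with no test. The gpcp-1 peak, with its sequence above, was the strongest. The lys-1 peak had a signal of 128 (54.6 and 73.9 in replicates 1 and 2), in exon 2 of 2 and 82 bp before the end of the gene. The other coding peaks with a DBE had signals of 64.9 to 78. All 10 DBE peaks in 5' UTRs lay in a start window, as did 90.8% of all 5' UTR IDR peaks.

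The 5' UTR peaks with a DBE had signals of 66.6 to 227. The fkh-9 peak had 174 (82.3 and 91.0 in replicates 1 and 2), 280 bp upstream of an annotated fkh-9 start and 8195 bp from the most upstream one. The unc-22 peak had 128 (70.4 and 59.9), 60 bp after an annotated start and 11397 bp from the most upstream one. Both are therefore peaks at internal starts of long genes. The ZC477.3 peak ranked 799 among the nuclear IDR peaks (signals of 49.5 and 68.8 in replicates 1 and 2), at the first base of the gene and 231 bp upstream of rde-8, an RNA interference nuclease gene. The tpp-2 peak had 110 (47.2 and 60.5), 22 bp after the start and 255 bp upstream of rbbp-5, a gene for a histone methyltransferase complex subunit.

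GA repeats were common at exonic IDR peaks, but less so than at the other IDR peaks. GAGAGA, or TCTCTC, lay within 100 bp of 60 of 227 summits (26.4%, interval 21.1–32.5), against 989 of 2313 other IDR peaks (42.8%, 40.8–44.8) and 1260 of 9571 other exonic candidates (13.2%, 12.5–13.9). The log2 odds ratio was -1.06 ± 0.23 against other IDR peaks (adjusted p = 5.34e-06) and 1.24 ± 0.22 against other exonic candidates (adjusted p = 1.07e-06, Fisher's exact test for both). How far the choice of exonic summits itself sets the first of these was not tested. As for every motif share over all classes, the class makeup of exonic IDR peaks and other exonic candidates differs. The GAGAGA share by class is therefore the closer comparison. By class it was 31 of 76 in 5' UTRs (40.8%) against 24.2%, 1.11 ± 0.37 (adjusted p = 0.00842, Fisher's exact test), and not past the threshold without replicate 2 (0.86), with a window of 200 bp (0.68) or with the stronger IDR peaks only (1.06). In coding exons it was 20 peaks (17.9%) against 11.2% and in 3' UTRs 9 of 39 (23.1%) against 19.5% (adjusted p = 0.0611 and 0.543, Fisher's exact test). Among the strong peaks with it were those in a coding exon of pks-1, in the 3' UTR of ZK673.1 and in the 5' UTR of srh-2. Their sites are shown to set the GA repeat beside the DBE above, with the 6 bases in capitals, on the host's strand of WBcel235; the pks-1 site lay in an intron beside the exon of the summit and the others in the UTR of the summit.
pks-1, summit in a coding exon, chrX:5429459-5429488, plus strand: cctcgatttttaTCTCTCcgttgtaggcaa
ZK673.1, summit in a 3' UTR, chrII:10445189-10445218, plus strand: cgtgattaggtcGAGAGAgggaagtctatg
srh-2, summit in a 5' UTR, chrV:731499-731528, plus strand: gccgggcagcacGAGAGAaagagcgtgata
A DBE and GAGAGA were both present in 4 peaks, and 77 of 227 (33.9%) held at least one of them.

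**Figure D5:**
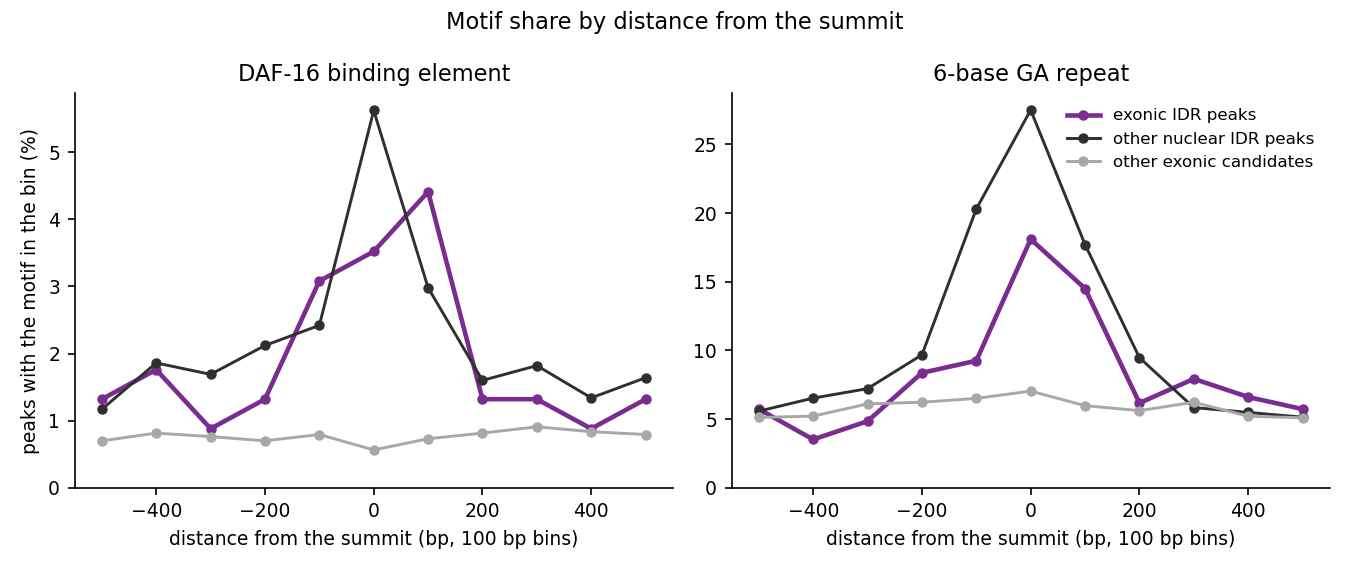
Share of peaks (%) with the DBE (left) or GAGAGA (right) in bins of 100 bp by distance from the summit, in genome direction, for exonic IDR peaks (purple), other nuclear IDR peaks (black) and other exonic candidates (grey). GAGAGA peaks at the summit bin in exonic IDR peaks with 18.1%, against 27.5% in other IDR peaks and 7.04% in other exonic candidates; the DBE reaches 3.52% in the summit bin and 4.41% in the next, against 5.62% and 2.98% in other IDR peaks and 0.564% and 0.731% in other exonic candidates.

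The E-box CAGCTG, a site of muscle bHLH factors, was found in 30 of 227 exonic IDR peaks (13.2%, interval 9.42–18.2), against 10.2% of other IDR peaks and 7.54% of other exonic candidates. The log2 odds ratio was 0.42 against other IDR peaks (adjusted p = 0.297) and 0.90 ± 0.29 against other exonic candidates (adjusted p = 0.010, Fisher's exact test for both), and the second was lost without replicate 2 (0.37), without the X chromosome (0.71), with a window of 200 bp (0.31) and with the stronger IDR peaks only (0.83). In coding exons it was 19 peaks (17%) against 8.56%, 1.13 ± 0.37 (adjusted p = 0.00842, Fisher's exact test), and not past the threshold without replicate 2 (0.52), without the X chromosome (0.88), with the stronger IDR peaks only (1.27), or with windows of 50 bp (1.16) and 200 bp (0.55). Among coding peaks outside start windows 14 of 64 held it (21.9%) against 8.78% of such candidates. GATAA, the core of GATA factor sites, was found in 40.5% against 34.5% and 34.7% (adjusted p = 0.156 for both), and the DAF-16 associated element CTTATCA in 3.08% against 3.85% and 3.33% (Fisher's exact test, neither past the threshold).

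Body wall muscle genes were among the hosts, given here as counts with no test. Of the 42 listed muscle genes with any exonic candidate, 5 hosted an exonic IDR peak (11.9%), against 221 of 5704 over all genes (3.87%). These shares are per gene and take no account of how many candidates each gene holds. The 5 were unc-54 and unc-22 above, the troponin C gene pat-10, the calponin gene cpn-3 and the calcium pump gene sca-1. The unc-54 peak is the one upstream of aex-5 described above. The pat-10 peak had 94.7 (60.7 and 34.3 in replicates 1 and 2) in the 5' UTR, 58 bp after the start. The cpn-3 peak had 83.4 (22.4 and 52.1) in the first coding exon, and the sca-1 peak 73.7 (30.7 and 45.1) in exon 3 of 4. These 3 ranked 1248, 1546 and 1909 among the nuclear IDR peaks, and in cpn-3 the replicates differed by more than 2 times.

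From the list of insulin signalling and DAF-16 target genes, 1 of 12 genes with an exonic candidate hosted peaks (8.33%). Over all genes the share was 221 of 5704 (3.87%), and a count of 1 is too small to set a list apart. The host was icl-1, which encodes the bifunctional glyoxylate cycle enzyme. Its 3 coding peaks had signals of 63.8 (40.1 and 36.8 in replicates 1 and 2), 62.8 (52 and 26.8) and 61.9 (25.1 in replicate 2, unmatched in replicate 1). All 3 were close to the boundary of the list and lay 1200 to 2696 bp from the start of icl-1. Among chaperone genes 1 of 30 was a host (3.33%), hsp-12.3, with 110 (70.8 and 44.2) in its 3' UTR. Among nuclear hormone receptor genes 1 of 38 was a host (2.63%), nhr-47, with 117 (53.7 and 63.4) in its 5' UTR, 407 bp upstream of the DnaJ gene dnj-19.

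Several abundant families hosted no exonic IDR peak. Over all genes with an exonic candidate, 221 of 5704 hosted one (3.87%). None of the 93 collagen genes with an exonic candidate hosted one, and none of the 26 ribosomal protein genes. A rough one-sided upper limit, 3 divided by the number of genes, was 3.23% for collagen and 11.5% for ribosomal protein genes. This limit is lower than the upper end of a two-sided Wilson interval. Neither family was tested against the share over all genes. The collagen genes col-165 and col-63 did have an exonic IDR peak in their start windows, in exons of F14H12.2 (70.1, with 38.7 and 24.9 in replicates 1 and 2) and ceh-8 (143, with 54.7 and 82.7). None of the 10 histone and 19 translation factor genes with an exonic candidate was a host. The marker genes of other tissues gave 0 hosts among 6 intestinal, 4 pharyngeal muscle, 3 neuronal, 4 hypodermal and 5 germline genes with an exonic candidate, numbers too small to limit the share.

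Few exonic IDR peaks had another IDR peak close by. Another nuclear IDR summit lay within 500 bp of 25 of 227 (11%), against 190 of 2313 other IDR peaks (8.21%), a description with no test. The share was 15 in coding exons (13.4%), 6 of 76 in 5' UTRs (7.89%) and 4 of 39 in 3' UTRs (10.3%). The median distance to the nearest other IDR summit was 3859 bp, against 5093 bp for the other IDR peaks.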

How the data were processed

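Peak lists on ce11 were deposited for each replicate, for both replicates together and after IDR, and no control list was analysed. The deposited signal values are those of the authors' peak caller; no source used here gives the caller, the aligner, the IDR threshold or what the signal is scaled to. The deposited −log10 q-values were not used. The ce10 lists were not analysed. Every peak end fitted the WBcel235 chromosomes, the assembly that ce11 names. Exons, starts and genes came from Ensembl release 115, and all coordinates are 1-based summits or regions. Two-sided Fisher's exact tests compared shares of peaks (Python 3.11.15, scipy 1.17.1), with Benjamini-Hochberg adjustment within the families named and a threshold of 0.05. SEs of log2 odds ratios follow Woolf, adding 0.5 to all cells of a table with a 0, and intervals are Wilson 95% (statsmodels 0.14.6). The tests were run on simulated shares of independent peaks, which does not cover peaks that lie close together. A motif counted once a peak if it occurred on either strand up to 100 bp from the summit. Peaks of 2 lists matched when their summits lay within 100 bp.

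The peaks named are the 8 strongest of each exon class, up to 8 strongest with a DBE, up to 4 per gene list and the strongest on each chromosome; others are marked. The members, gene lists and tests were chosen with earlier results of these data known. Alternatives changed windows, peak choice, starts, peaks per gene, references and replicates. Nothing in the labels says that the biological replicates share or do not share a culture.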

Additional observations from a re-analysis of the deposited data

How the results depend on the processing

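Of 559 values recomputed under the alternatives, 503 stayed on their side of the threshold (counts within 1.5 times), and no called value changed sign; 51 of those not called had another sign than in the main setting. Leaving out a replicate means that as many of the strongest nuclear candidates of the other replicate's list took the place of the IDR peaks.

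With only the stronger IDR peaks (signal at or above the median), 95 exonic peaks remained, 38 coding, 40 in 5' UTRs and 17 in 3' UTRs, since fewer peaks enter. Stronger IDR peaks alone left these log2 odds ratios no longer past the threshold: GC content in 3' UTRs 1.96, DBE in coding exons 2.33, GAGAGA in 5' UTRs 1.06, E-box in coding exons 1.27, coding peaks in the last exon 1.14, another protein-coding gene's start 0.87, X share 0.93 against other exonic candidates and -0.40 against other IDR peaks, E-box 0.83 against other exonic candidates, coding peaks within 500 bp of the host's start 1.06, and repeated sequence -2.64 against other IDR peaks. Without repeated sequence the X share against other IDR peaks was -0.57, not past it. The X share against other exonic candidates ranged from 0.50 to 0.53 and the E-box share from 0.37 to 1.02 when a replicate was left out. The E-box value was 0.31 with a motif window of 200 bp and 0.71 without X, neither past the threshold. Coding peaks near the host's start gave 0.67 with 1 peak per host gene and 0.58 at 1000 bp, neither past it. The share above the median signal gave -0.39 with peaks matched in both replicates, -0.48 with 1 peak per host gene, -0.50 against intronic peaks, and -0.07 and -0.42 with the signal of replicate 1 and replicate 2, none past it. The 10 values newly past it were GATAA against other exonic candidates with a window of 200 bp (0.53), summits within 200 bp of a noncoding gene against other exonic candidates (1.68), GC content in 5' UTRs with a window of 50 bp (1.78) and without replicate 2 (1.24), the DBE in 3' UTRs with a window of 200 bp (2.14), GAGAGA in coding exons with 1 peak per host gene (0.89), and a noncoding gene's start without replicate 1 (0.99), without replicate 2 (0.69), with a window of 500 bp upstream to 100 bp downstream (1.18) and without X (0.78). The causes were not tested.

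The settings without X and all motif shares by class were chosen after seeing the data. An alternative with 1 canonical transcript per gene was not run, because the annotation used here carries no such tag. No paired analysis was possible because there is 1 group. The files hold no counts, so the depth behind each peak is unknown, and exonic candidates that did not pass IDR are weak peaks.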
